A study of Mus musculus with 20 samples.

Results

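The 34 genes described here were listed as targets and regulators of the tumour suppressor p53 and genes of the DNA damage checkpoint. Of these 1, Dda1, was placed under none of these roles. All 34 were measured in natural killer (NK) cells isolated from the spleens of mice. They were chosen by name, and each gene is represented by its brightest array probe among those that cleared background clearly on 5 or more of the 20 arrays. By that rule 33 of the 34 genes had a usable probe, out of 17481 genes on the array that did. Chek2, the kinase that relays double-strand break signals from Atm, had 2 probes, which stood above background on 3 and 0 arrays, and is not described further. The 20 male C57BL/6 mice fell into 4 groups of 5, and each mouse gave RNA for 1 Agilent one-colour array. Control mice received water, one group received ptaquiloside at 5.3 mg/kg, another received selenium at 1.3 mg/kg and the last received both compounds at these doses. Dosing was by gavage, once a day over 14 days in every group. Ptaquiloside is the toxic glycoside of bracken fern, which can alkylate DNA, and selenium is a trace element built into antioxidant enzymes.

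In undamaged cells p53 is kept low by Mdm2, an E3 ubiquitin ligase that marks it for degradation, and by the related inhibitor Mdm4. Damage to DNA activates the kinases Atm and Atr and, through them, Chek1 and Chek2, which stabilise p53 largely at the protein level. Stabilised p53 then raises the transcription of genes that stop the cell cycle, such as Cdkn1a, that promote cell death, such as Bbc3 and Pmaip1, and that limit p53 itself, such as Mdm2. Several of these genes, the Gadd45, Btg and Plk families among them, are also induced by cell activation and handling stress in lymphocytes.

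Levels are given as log2 of the background-subtracted spot signal minus the 75th percentile of the same array, so that 0 is the brightness exceeded by 25% of the spots. They are comparable between arrays for 1 probe but not between probes. The labelled cell type was borne out by its markers: all 8 NK markers examined (Ncr1, Klrb1c, Klrk1, Klrd1, Eomes, Il2rb, Gzma and Prf1) were well above background on all 20 arrays. Markers of other spleen cells were also seen, with 4 of 8 B cell, 6 of 8 T cell and 6 of 8 neutrophil markers above background on every array. The array of ptaquiloside mouse 4 stood apart. Its 75th percentile was 10.5 signal units against 45.5 to 133 on the others, and 36.3% of its spots were well above background against 51.7% to 60.9%. Its correlation with the other arrays over all probes was 0.625 to 0.755, where the others correlated at 0.936 to 0.990 with each other. Results on the ptaquiloside group are therefore mostly given with and without this array, and some differences of single genes only without it. The next lowest 75th percentile, 45.5, was that of array both compounds 5, followed by 75.35 on selenium 4. Array both compounds 5 was kept in the comparisons unless stated. The 5 slides each carried the 4 mice of 1 number, 1 per group, and a group kept its place on all 5, so that treatment and place on the slide cannot be told apart.

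3 probes are shown because they carry the genes at the centre of the set: the second probes of Trp53 and Mdm2, each printed in 10 spots per array, and the Chek2 probe that stood above background on 3 arrays and so failed the filter. They are 60 bases long, written 5′ to 3′ as the array files give them, and are placed on mouse build mm9. The Trp53 probe lies at chr11:69403134-69403193 on the plus strand, the Mdm2 probe at chr10:117129725-117129784 on the minus strand and the Chek2 probe at chr5:111294547-111294606 on the plus strand. No exon annotation of that build was used.
Trp53: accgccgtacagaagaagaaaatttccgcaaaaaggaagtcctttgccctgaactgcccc
Mdm2: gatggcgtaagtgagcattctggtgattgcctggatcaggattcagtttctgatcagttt
Chek2: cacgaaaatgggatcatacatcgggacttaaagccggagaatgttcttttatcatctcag

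The promoter of Cdkn1a is shown because this gene is the classical transcriptional readout of p53. It was also the only gene of the set whose promoter window held a complete match to the strict pattern searched for the p53 response element. Windows of 300 bases, from 250 before to 50 after an annotated start (RefSeq, GRCm38.p6), were given for 28 of the 34 genes, 35 windows in all. The p53 half-site, a motif of 10 bases that reads the same on both strands, was found in 11 of the 35 windows (31.4%), those of Aen, Ccng1, Cdkn1a, Ei24, Gadd45a, Mdm2, Polk, Ppm1d, Sesn1 and Trp53. Aen contributed 2 overlapping windows. Among all 32851 windows 8.36% held a half-site. A full element, 2 half-sites with up to 13 bases between them, was found in 1 of the 35 windows and in 0.0731% of all windows. In the Cdkn1a window at chr17:29090729-29091028 on the plus strand, capitals mark the 2 half-sites, which are separated by 12 bases. This window belongs to the more upstream of 2 annotated Cdkn1a starts, and the other window held no half-site. A match is a description of the letters, and binding was not measured. The pattern allowed no mismatch, so stretches beside the marked ones that miss it by a letter stay in small letters. The marked pair need not be the pair that p53 binds.
Cdkn1a: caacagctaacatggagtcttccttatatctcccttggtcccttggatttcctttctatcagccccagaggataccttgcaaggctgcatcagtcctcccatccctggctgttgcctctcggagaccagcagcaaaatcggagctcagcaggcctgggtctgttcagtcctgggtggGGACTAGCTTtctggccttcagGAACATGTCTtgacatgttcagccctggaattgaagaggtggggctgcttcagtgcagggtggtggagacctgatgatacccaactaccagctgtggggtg

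Signal from these genes was readily measured over the 4 groups, which by itself does not show p53 activity. Of the 33 genes, 20 had their brightest probe well above background on all 20 arrays, 10 on 19 arrays and 3, Chek1, Zmat3 and Rrm2b, on 15, 17 and 14 arrays. The spread between the 5 control mice ran from an SD of 0.11 for Polk, a translesion DNA polymerase, to 0.67 for Bbc3, which encodes the BH3-only death inducer PUMA, with a median of 0.31. For the 2 genes whose brightest probe was printed 10 times per array, the mice differed more than the spots did. The SD of Cdkn1a between control mice was 0.56 against a median of 0.05 between spots of 1 array, and that of Fas, the death receptor, was 0.29 against 0.06.

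The first comparison asked whether ptaquiloside changed these genes. None of the 33 passed the threshold of an adjusted p under 0.05 (limma with Benjamini-Hochberg adjustment over all 17481 genes), with or without the dim array, and 0% of all genes did. At an unadjusted p under 0.05, the count was 0 of 33 on all arrays against a background of 1.50%, and 2 of 33, Gadd45g and Ccng1, without ptaquiloside 4 against a background of 1.50%. With the slide as a block and without that array the count was again 2 of 33, against 2.37%, but the genes were Gadd45g and Plk3. The side on which the genes lay turned with that array. On all arrays 14 were higher and 19 lower under ptaquiloside, with a median difference of -0.17 on the log2 scale where all genes had -0.0036 and 49.7% of them were higher. Without ptaquiloside 4, 23 were higher and 10 lower with a median of 0.18, where all genes had -0.0010 and 49.8% of them were higher. Leaving that array out kept control 4, its slide mate. With the slide as a block as well, 24 were higher and 9 lower, with a median of 0.13 where all genes had 0.011. That fit gave 0.65 for Gadd45g, 0.57 for Plk2, 0.23 for Cdkn1a and 0.18 for Mdm2. Differences of single genes without ptaquiloside 4 are given below without the block unless stated. All these counts of genes higher and lower rest on the brightest probe of each gene. Of the 25 other tested probes 13 were higher and 12 lower without ptaquiloside 4, and 12 had the opposite sign to the brightest probe of their gene. Centring each array on its median in place of the 75th percentile shifted all genes together, by -0.24 and 0.12, and gave 7 higher and 26 lower with the dim array and 30 higher and 3 lower without it. Relative to the median of all genes the set lay at -0.16 and 0.18 under both centrings. The centrings differ by 1 constant per array, so this agreement follows from the arithmetic. With and without the dim array, the set lay at -0.22 and 0.13 from that median under quantile normalization. Under normexp background correction it lay at -0.01 and 0.27. On the dim array itself the median deviation of the 33 genes from the control mean was -1.10, and single genes ran from -4.12 to 2.03. Replicates are separate mice, and in RNA from a bulk cell preparation fewer cells of a type and less RNA per cell cannot be told apart.

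**Figure D1:**
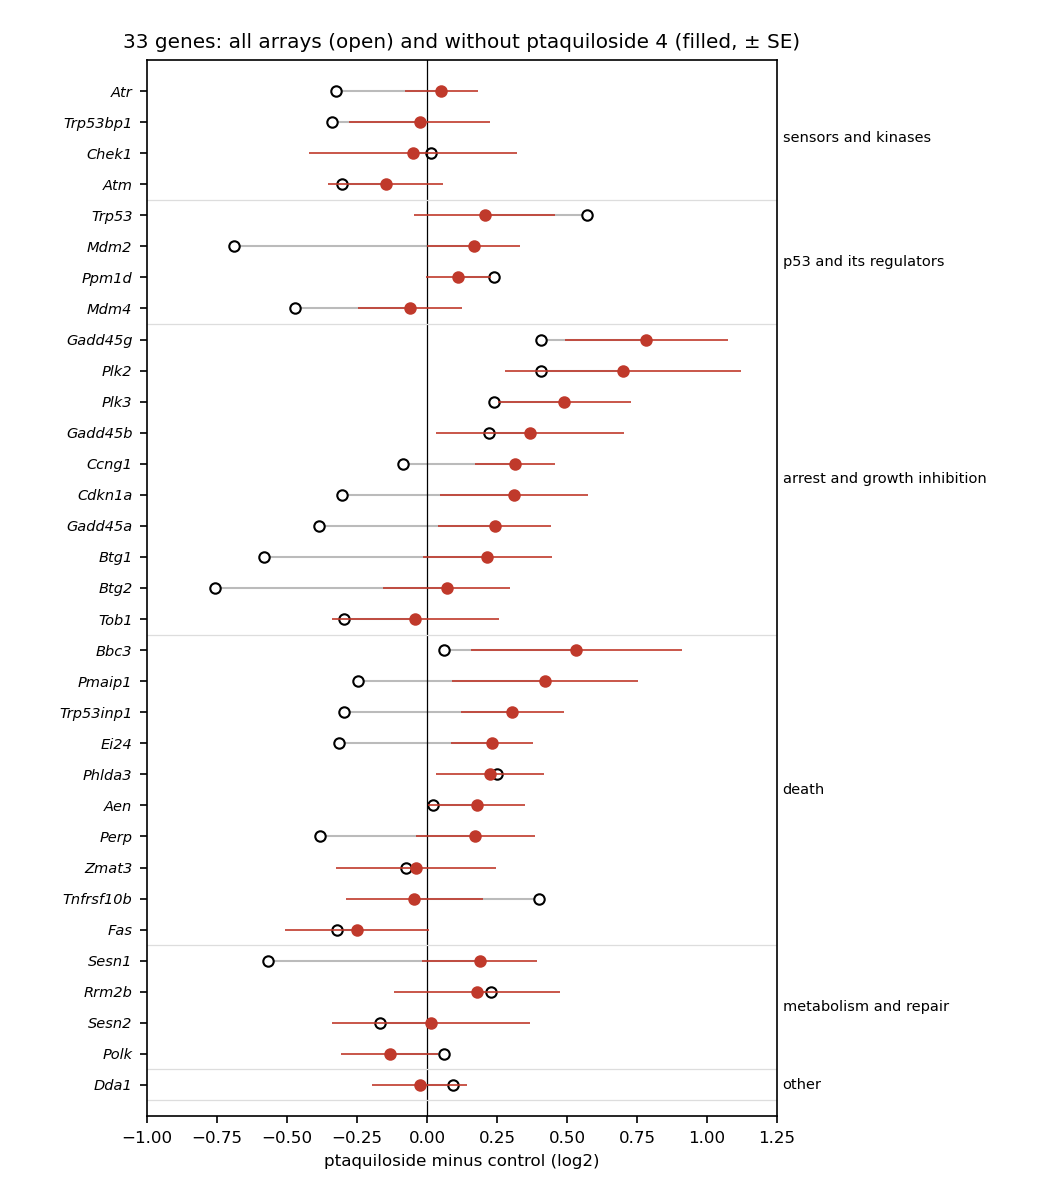
Difference between ptaquiloside and control (log2, x axis) for the 33 genes, grouped by role. Open circles use all 20 arrays, and filled circles with SE leave out array ptaquiloside 4. Of the 10 genes of arrest and growth inhibition, 9 lie above 0 without that array and 4 with it.

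Among the sensors and kinases, the largest difference without ptaquiloside 4 was -0.15 ± 0.21 (SE) for Atm, the kinase activated by double-strand breaks. Atr, the kinase activated by stalled replication forks, differed by 0.05 ± 0.13, and Trp53bp1, a scaffold recruited to breaks, by -0.03 ± 0.25. Chek1, the effector kinase below Atr, differed by -0.05 ± 0.37, and its probe was well above background on 3 of 5 ptaquiloside arrays. Of these 4 genes 3 were lower with and without the dim array, though not the same 3. On all arrays Atm, Atr, Trp53bp1 and Chek1 differed by -0.30, -0.32, -0.34 and 0.01. On the dim array Atr and Trp53bp1 were at -0.30 and -0.51, against 1.34 to 1.71 and 0.89 to 1.38 in control mice.

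Trp53 encodes p53 itself. Its level in control mice 1 to 5 was 1.20, 0.91, 0.87, 1.03 and 1.21, and in ptaquiloside mice 1 to 5 it was 1.64, 0.86, 1.40, 3.07 and 1.10. With both compounds the 5 levels were 1.55, 0.72, 1.45, 0.73 and 0.79, and with selenium alone they were 0.78, 1.91, 0.86, 0.94 and 1.62. The 4 groups overlapped, and the highest level of the 20 was that of the dim array. Under ptaquiloside Trp53 was 0.57 ± 0.34 higher (limma adjusted p = 0.801, 95% interval -0.15 to 1.29), the smallest p of the 33 genes on all arrays. Without ptaquiloside 4 the difference was 0.21 ± 0.25 (adjusted p = 1, interval -0.32 to 0.74). The second Trp53 probe, which lies 9117 bases farther along the gene on mm9, was also at its highest on the dim array, at 1.23, where control mice ran from -1.08 to -0.56. It differed by 0.29 on all arrays and by -0.13 without the dim one, so that the 2 Trp53 probes lay on opposite sides of 0 there.

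Mdm2, the ligase that degrades p53 and is itself a p53 target, was at 2.25, 2.49, 2.44, 2.59 and 2.75 in control mice 1 to 5. In ptaquiloside mice it was at 2.59, 2.65, 2.88, -1.62 and 2.57. The mice given both compounds had 2.01, 2.41, 2.33, 2.67 and 2.73, and those given selenium had 2.02, 2.32, 2.40, 2.08 and 2.63. Apart from the dim array, on which the probe was not well above background, all levels fell between 2.01 and 2.88 and the groups overlapped. The ptaquiloside difference was -0.69 ± 0.59 (limma adjusted p = 0.801) on all arrays and 0.17 ± 0.17 (adjusted p = 1, interval -0.18 to 0.52) without ptaquiloside 4. The second Mdm2 probe, whose sequence is printed above, differed by -0.17 and by -0.05.

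Mdm4, which binds and inhibits p53 without degrading it, was at 1.02, 0.73, 1.27, 1.15 and 1.17 in control mice and at 1.01, 0.88, 1.26, -1.04 and 0.88 in ptaquiloside mice. With both compounds it was at 1.15, 1.05, 1.22, 1.46 and 0.73 and with selenium at 0.97, 0.38, 0.74, 1.06 and 1.31. The difference of -0.47 ± 0.33 (limma adjusted p = 0.801) was -0.06 ± 0.19 without the dim array (adjusted p = 1). Another Mdm4 probe was higher on that array, at 2.16 against -1.12 to -0.18 in control mice. Ppm1d, the phosphatase WIP1 that switches p53 signalling off, was at -0.49, -0.30, -0.13, -0.40 and -0.36 in control mice and at -0.28, -0.12, -0.33, 0.41 and -0.17 in ptaquiloside mice. With both compounds it was at -0.31, -0.12, -0.37, -0.33 and -0.29 and with selenium at -0.32, -0.16, -0.13, -0.49 and -0.31. Its difference was 0.24 ± 0.17 (adjusted p = 0.801), and 0.11 ± 0.12 without the dim array (adjusted p = 1). Neither gene's groups were separated.

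**Figure D2:**
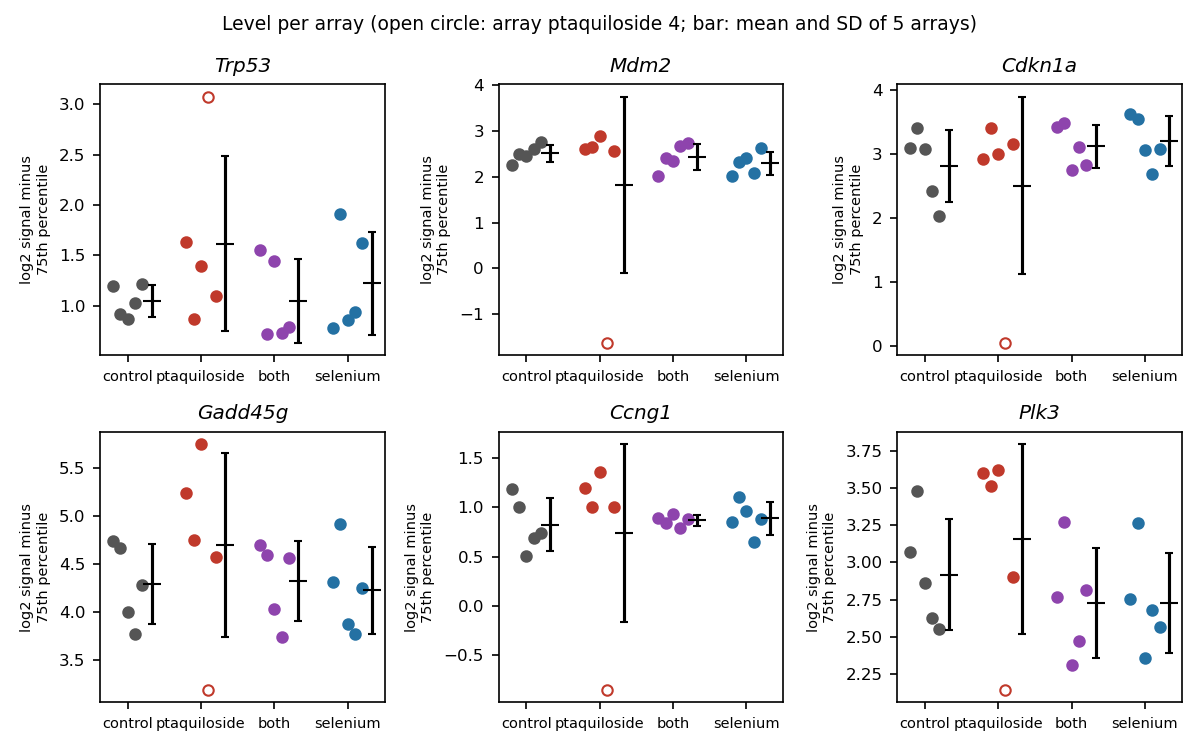
Level of 6 genes on each array (log2 signal minus the array's 75th percentile, y axis) in the 4 groups, with the mean and SD of 5 arrays beside the points. The open circle, array ptaquiloside 4, is the highest Trp53 value at 3.07 and the lowest Mdm2 value at -1.62.

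Genes of cell cycle arrest and growth inhibition were on the higher side most often once ptaquiloside 4 was left out, 9 of 10 with a median difference of 0.31, against 4 of 10 and a median of -0.19 on all arrays. Gadd45g, one of 3 related stress sensors that act on MAP kinases and the cell cycle, had the smallest p there. It was at 4.73, 4.67, 4.00, 3.78 and 4.28 in control mice 1 to 5 and at 5.24, 4.74, 5.75, 3.19 and 4.58 in ptaquiloside mice. Mice given both compounds had 4.70, 4.60, 4.03, 3.74 and 4.56, and selenium mice had 4.31, 4.92, 3.88, 3.77 and 4.25. Ptaquiloside mice 1 and 3 held the 2 highest levels of the 20 and the dim array held the lowest. Gadd45g was 0.41 ± 0.38 higher on all arrays (limma adjusted p = 0.801) and 0.78 ± 0.29 higher, 1.72-fold, without ptaquiloside 4 (adjusted p = 1, interval 0.17 to 1.40). It was above the control array of the same slide on 4 of 5 slides. Leaving out ptaquiloside 3 in place of ptaquiloside 4 gave 0.14.

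Ccng1 encodes cyclin G1, a p53 target that recruits a phosphatase to Mdm2. Control mice were at 1.18, 1.00, 0.50, 0.69 and 0.74, and ptaquiloside mice at 1.19, 1.00, 1.36, -0.86 and 1.00. Mice given both compounds lay close together at 0.89, 0.84, 0.94, 0.79 and 0.88, and selenium mice were at 0.86, 1.11, 0.96, 0.65 and 0.88. The difference under ptaquiloside was -0.09 ± 0.31 (limma adjusted p = 0.916), or 0.31 ± 0.14 without ptaquiloside 4 (adjusted p = 1). The second Ccng1 probe differed by -0.52 on all arrays and by 0.0077 without that array.

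Plk3 and Plk2 encode polo-like kinases of the stress response. Plk3 was at 3.07, 3.48, 2.86, 2.63 and 2.55 in control mice and at 3.60, 3.51, 3.62, 2.14 and 2.90 in ptaquiloside mice, so that ptaquiloside mice 1 to 3 exceeded all control mice. With selenium it was at 2.75, 3.26, 2.36, 2.68 and 2.57. Its difference was 0.24 ± 0.29 (limma adjusted p = 0.801), or 0.49 ± 0.24 without ptaquiloside 4 (adjusted p = 1). Plk2 was at 2.51, 3.32, 2.35, 1.62 and 1.92 in control mice and at 3.85, 2.80, 3.78, 1.57 and 1.76 in ptaquiloside mice. With both compounds it was at 2.19, 2.93, 1.84, 2.09 and 2.90 and with selenium at 2.27, 2.80, 1.89, 1.48 and 1.70. Its difference was 0.41 ± 0.44 (adjusted p = 0.801), or 0.70 ± 0.42 without the dim array (adjusted p = 1). The 2 highest Plk2 levels of the 20 arrays were those of ptaquiloside mice 1 and 3, as for Gadd45g.

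Cdkn1a encodes p21, the inhibitor of cyclin-dependent kinases through which p53 stops the cell cycle. Control mice 1 to 5 were at 3.09, 3.41, 3.09, 2.43 and 2.04, and ptaquiloside mice at 2.93, 3.40, 3.00, 0.05 and 3.16. With both compounds the levels were 3.43, 3.49, 2.75, 3.11 and 2.83, and with selenium they were 3.63, 3.55, 3.06, 2.69 and 3.08. Leaving the dim array aside, the groups overlapped, and the highest level, 3.63 in selenium mouse 1, compares with 3.41 in the highest control mouse. The ptaquiloside difference was -0.30 ± 0.48 (limma adjusted p = 0.826) and, without ptaquiloside 4, 0.31 ± 0.27 (adjusted p = 1, interval -0.25 to 0.87), with ptaquiloside above control on 1 of 5 slides. The other members of this group, without the dim array, ran from -0.04 for Tob1, an antiproliferative adaptor, to 0.37 for Gadd45b. Btg1 and Btg2, antiproliferative factors that bind the mRNA deadenylase complex, were 0.22 ± 0.23 and 0.07 ± 0.23 higher. On all arrays theirs were the 2 lowest differences of the group, -0.58 and -0.76.

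Of the 10 death genes 7 were higher without ptaquiloside 4, with a median of 0.20, and 4 were higher on all arrays, with a median of -0.16. Bbc3 differed by 0.53 ± 0.38 without that array (0.41 with the slide as a block). Pmaip1, which encodes the BH3-only protein NOXA, differed by 0.42 ± 0.33 (0.25 with the block). Both had a limma adjusted p of 1. Trp53inp1, a p53-inducible nuclear protein, differed by 0.30 ± 0.18, and Ei24, an endoplasmic reticulum protein, by 0.23 ± 0.15. On all arrays Bbc3, Pmaip1, Trp53inp1 and Ei24 differed by 0.06, -0.25, -0.30 and -0.32. Without the dim array Fas went the other way at -0.25 ± 0.26 (-0.32 on all arrays). Its lowest level of the 20 arrays, 1.41, was that of ptaquiloside mouse 3. The second Fas probe differed by 0.04 without the dim array and by -0.68 on all arrays. Tnfrsf10b, the mouse TRAIL receptor, was 0.40 ± 0.34 higher on all arrays and differed by -0.05 ± 0.24 without the dim array, on which it was at -0.96 against -3.16 to -2.37 in control mice. It lacked a value for ptaquiloside mouse 5, where its spot was marked as an outlier. Of the genes of metabolism and repair, Sesn1, a stress-induced inhibitor of TORC1 signalling, differed by 0.19 ± 0.20, and its relative Sesn2 by 0.015 ± 0.35. Rrm2b, the p53-inducible subunit of ribonucleotide reductase, differed by 0.18 ± 0.30 and Polk by -0.13 ± 0.17. Dda1, placed under none of these roles, differed by -0.03 ± 0.17. These differences leave out the dim array. On all arrays Sesn1, Sesn2, Rrm2b, Polk and Dda1 differed by -0.57, -0.17, 0.23, 0.06 and 0.09.

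**Figure D3:**
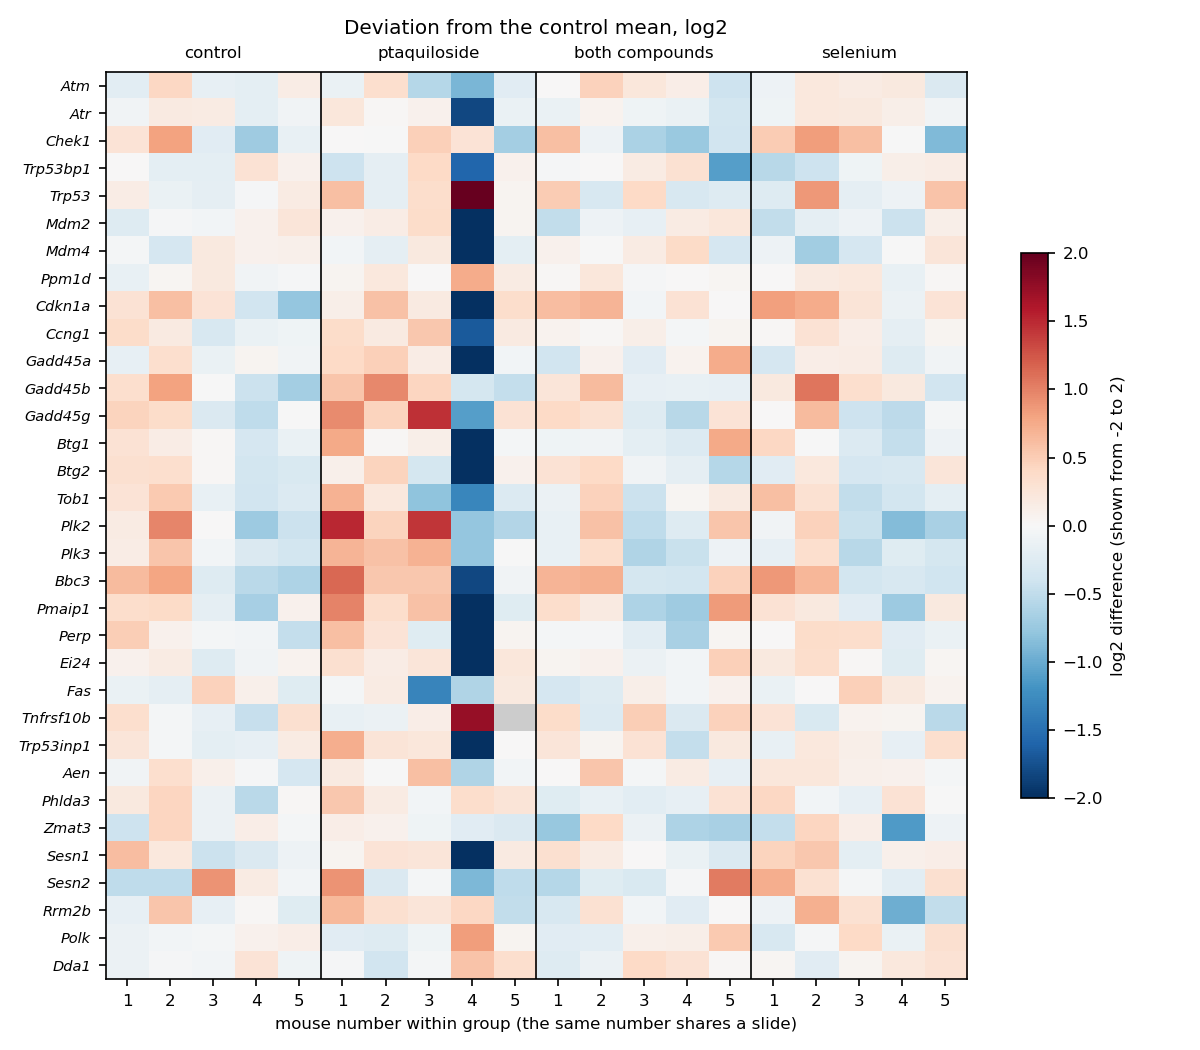
Deviation of each of the 33 genes (rows) from its control mean on each of the 20 arrays (columns, by group and mouse number), in log2 units shown from -2 to 2. Array ptaquiloside 4 carries the deepest blue column, with 8 of 33 genes above the control mean, and the grey cell is a missing value.

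Array by array, ptaquiloside mouse 1 had 26 of 33 genes above the control mean (median deviation 0.31), mouse 2 had 24 (0.18), mouse 3 had 23 (0.19) and mouse 5 had 16 of 32 (-0.0017). Control mice 1 and 2 had 20 and 23 genes above that mean, and control mice 3, 4 and 5 had 10, 10 and 11. Ptaquiloside mice 1 to 3 thus lay at or above the highest control mouse in this count, and mouse 5 lay between the 2 sets of controls. Mouse 4, the dim array, had 8. The control mice themselves define the mean used. Set against the control array of the same slide, ptaquiloside was higher for 25 of 33 genes on slide 1, 15 on slide 2, 22 on slide 3, 9 on slide 4 and 18 of 32 on slide 5. Gadd45b was the 1 gene of 33 higher on 5 of 5 slides, where 2.47% of all genes with values on all slides were.

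The levels of the marker lists of other cells overlapped between ptaquiloside and control mice. Without ptaquiloside 4 all 8 B cell markers were lower than in control mice, with a median difference of -0.51, and so were all 8 T cell markers, with a median of -0.32. The mean log2 level of the B cell list ran from -0.90 to 0.54 in control mice and from -2.02 to 0.01 in ptaquiloside mice, and that of the T cell list from -1.21 to 0.09 and from -1.56 to 0.34, the last on the dim array. The B cell levels of ptaquiloside mice 1 to 5 were 0.01, -1.34, -0.07, -0.61 and -2.02. Without ptaquiloside 4 all 8 neutrophil markers were lower as well, by a median of 0.21. Of the macrophage and the dendritic cell markers 7 of 8 each were lower, with medians of -0.16 and -0.08, of the erythroid markers 5 of 7, with a median of -0.49, and of the platelet markers 0 of 6, with a median of 0.10. All 8 NK markers were higher, by a median of 0.19, with list levels of 4.14 to 4.99 in control mice and 4.64 to 4.92 in the 4 ptaquiloside mice. None of these markers passed the adjusted threshold, and their part in the differences above was not tested.

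Selenium alone was compared with control next. None of the 33 genes passed the adjusted threshold, nor did any gene on the array (0%), and at an unadjusted p under 0.05 the count was 0 of 33 against a background of 1.05%. Of the 33, 19 were higher and 14 lower, with a median difference of 0.06 where all genes had 0.01. The 3 genes with the smallest p were Gadd45b at 0.28 ± 0.33, Zmat3 at -0.23 ± 0.28 and Cdkn1a at 0.39 ± 0.48, all with a limma adjusted p of 1. The dim array enters these errors through the shared spread. Without it the 3 smallest p-values were those of Cdkn1a (0.39 ± 0.25), Mdm2 (-0.21 ± 0.16) and Sesn1 (0.20 ± 0.19), again with a limma adjusted p of 1. Gadd45b was at 4.97, 5.43, 4.62, 4.20 and 3.95 in control mice and at 4.82, 5.71, 4.96, 4.83 and 4.25 in selenium mice. It was at 5.19, 5.60, 5.06, 4.28 and 4.16 with ptaquiloside and at 4.88, 5.26, 4.46, 4.49 and 4.47 with both compounds. Zmat3, a zinc finger RNA-binding protein induced by p53, was at -3.25, -2.41, -2.97, -2.70 and -2.88 in control mice and at -3.32, -2.42, -2.71, -3.98 and -2.95 in selenium mice, with the lowest value in selenium mouse 4, without which the difference was -0.0068. These groups overlapped. Mdm2 and Plk2 were lower than control on 5 of 5 slides, by 0.21 and 0.32 on average, and Fas was higher on 5 of 5, by 0.12. That is 2 and 1 of 33 genes, where 4.27% of all genes were lower and 5.40% higher on every slide. In selenium mice the mean log2 level of the B cell list ran from -2.07 to -0.70 and that of the T cell list from -1.71 to -1.09, mostly below the control ranges of -0.90 to 0.54 and -1.21 to 0.09, and their part in these differences was not tested.

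Mice given both compounds were compared with control in the same way, and 0 of 33 genes passed, against 0% of all genes. No member had an unadjusted p under 0.05 against a background of 0.229%. Here 21 genes were higher and 12 lower, with a median of 0.03 where all genes had 0.02, and median centring gave 14 higher and 19 lower. The smallest p belonged to Zmat3, -0.35 ± 0.28 (limma adjusted p = 1), which was at -3.60, -2.44, -2.96, -3.46 and -3.49 in mice given both and at -2.70, -2.76, -2.93, -3.07 and -3.14 in ptaquiloside mice. Chek1 followed at -0.25 ± 0.35 and Plk3 at -0.19 ± 0.29, both with a limma adjusted p of 1. Chek1 was at -3.07, -2.54, -3.58, -4.07 and -3.50 in control mice and at -2.76, -3.45, -3.99, -4.10 and -3.74 in mice given both. In ptaquiloside mice it was at -3.35, -3.37, -2.87, -3.08 and -4.03. It was well above background on 3 of these 5 arrays. The groups overlapped for all 3 genes. Trp53, Mdm2 and Cdkn1a differed by 0.0028 ± 0.34, -0.075 ± 0.59 and 0.31 ± 0.48. With ptaquiloside 4 left out of the shared spread the SEs were 0.24, 0.16 and 0.25, and the 3 smallest p-values were those of Zmat3, Cdkn1a and Atr.

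Adding selenium to ptaquiloside asked whether selenium altered the response. Again 0 of 33 genes passed the adjusted threshold, against 0% of all genes. At an unadjusted p under 0.05 the count on all arrays was 0 of 33 against a background of 2.43%. On all arrays 20 genes were higher with both compounds than with ptaquiloside alone and 13 lower (median 0.17, all genes 0.01). Without ptaquiloside 4 the split was 7 higher and 26 lower, with a median of -0.18 where all genes had 0.02. Median centring gave 23 higher and 10 lower with that array and 2 higher and 31 lower without it. This comparison and the comparison of ptaquiloside with control share the ptaquiloside arrays. At an unadjusted p under 0.05 the count without that array was 2 of 33, both lower with both compounds, against a background of 2.77%. These were Plk3 at -0.68 ± 0.24 (limma adjusted p = 0.998) and Gadd45g at -0.75 ± 0.29 (adjusted p = 0.998). Plk3, named after its values were seen, was at 2.77, 3.27, 2.31, 2.47 and 2.82 in mice given both compounds, so that 1 of these 5 exceeded the lowest of the 4 ptaquiloside levels, 2.90. With the slide as a block its adjusted limma p was 0.926.

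Ccng1 was the 1 gene of the set whose groups did not overlap in this comparison without ptaquiloside 4. All 5 mice given both compounds, at 0.79 to 0.94, lay below the 4 ptaquiloside mice, at 1.00 to 1.36, and the difference was -0.27 ± 0.14 (limma adjusted p = 0.998), singled out after its values were seen. Among all genes 0.458% were lower without overlap there. On all arrays the Ccng1 difference was 0.13. On the second Ccng1 probe the groups overlapped, at -0.79 to 0.05 with both compounds and -0.28 to 0.20 with ptaquiloside. On all arrays, the 3 genes with the smallest p were Phlda3, Atm and Trp53. Phlda3, a p53-induced inhibitor of Akt signalling, was at -0.64, -0.40, -0.96, -1.37 and -0.81 in control mice and at -0.30, -0.68, -0.89, -0.48 and -0.57 in ptaquiloside mice. With both compounds it was at -1.08, -0.98, -1.05, -1.0002 and -0.55, and with selenium at -0.41, -0.90, -1.0035, -0.55 and -0.85. The mice given both compounds numbered 1 to 4 lay below all 5 ptaquiloside mice, and mouse 5 lay among them. Phlda3 was 0.35 ± 0.20 lower with both compounds than with ptaquiloside alone (adjusted p = 0.821), and 0.32 ± 0.19 lower without the dim array. Leaving out both compounds 5 in place of ptaquiloside 4 gave -0.44. Atm was 0.39 ± 0.23 higher (adjusted p = 0.821), or 0.23 ± 0.21 without the dim array, and its levels were -2.36, -1.89, -2.81, -3.15 and -2.46 with ptaquiloside and -2.22, -1.77, -2.01, -2.10 and -2.65 with both. In control mice they were -2.44, -1.81, -2.39, -2.43 and -2.09, and with selenium -2.34, -2.02, -2.07, -2.03 and -2.52. Trp53 was 0.57 ± 0.34 lower (adjusted p = 0.821), or 0.20 ± 0.25 without the dim array. The groups of Atm and Trp53 overlapped.

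The mice given both compounds were also set against those given selenium alone, a comparison in which neither group holds the dim array, although that array enters the shared estimate of the spread. Of the 33 genes 0 passed the adjusted threshold, against 0% of all genes, and 0 had an unadjusted p under 0.05, against 0.583%. The set was evenly divided, 17 higher and 16 lower with a median of 0.0039, and under median centring, which moved all genes by -0.11, 7 were higher and 26 lower. The smallest p belonged to Chek1, at -0.46 ± 0.35 (limma adjusted p = 1), whose selenium levels were -2.85, -2.52, -2.75, -3.37 and -4.24. Phlda3 followed at -0.19 ± 0.20 (adjusted p = 1) and Fas at -0.21 ± 0.26 (adjusted p = 1). Fas was at 2.59, 2.54, 3.19, 2.84 and 2.49 in control mice and at 2.68, 2.90, 1.41, 2.13 and 2.92 with ptaquiloside. It was at 2.39, 2.47, 2.85, 2.67 and 2.81 with both compounds and at 2.59, 2.74, 3.20, 2.93 and 2.80 with selenium, and the 2 groups compared overlapped. With ptaquiloside 4 left out of the fit the 3 smallest p-values were those of Atr (-0.20 ± 0.12), Chek1 (-0.46 ± 0.35) and Mdm4 (0.23 ± 0.18), each with a limma adjusted p of 1. Atr was lower on 5 of 5 slides, by 0.20 on average, 1 gene of 33, where 2.50% of all genes were.

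Whether the ptaquiloside effect depended on selenium was tested as an interaction, the ptaquiloside difference in the presence of selenium minus that in its absence. No gene of the set passed the adjusted threshold (0% of all genes), and 0 of 33 had an unadjusted p under 0.05 against a background of 1.20%. The 2 smallest p-values were those of Phlda3, at -0.44 ± 0.28 (limma adjusted p = 0.998), and Trp53, at -0.75 ± 0.49 (adjusted p = 0.998). Without ptaquiloside 4 they were -0.41 ± 0.27 and -0.38 ± 0.35. The median over the set was 0.07 on all arrays and -0.22 without the dim array, with 8 genes above 0 and 25 below (2 and 31 under median centring), and 0 of 33 had an unadjusted p under 0.05 there, against 2.27%. With the slide as a block and without that array 1 of 33 did, against 4.18%, Gadd45b at -0.51 (limma adjusted p = 0.971). A test of any difference among the 4 groups called 0 of 33 genes and 0% of all genes, and at an unadjusted p under 0.05 it called 0 of 33 genes and 0.961% of all genes.

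Slides were called for some genes of the set where treatment was called for none. A test of slide beside treatment, added after the data had been seen, was run without ptaquiloside 4, and 4 of the 33 genes passed an adjusted p under 0.05, 12.1% of the set against 22.0% of all genes. On all arrays 2 of 33 passed, Gadd45b and Bbc3, or 6.06%, where 5.55% of all genes did. Neither share is read as particular to the set. The range of the 5 slide means was larger than the range of the 4 group means in 32 of the 33 genes, all but Fas, and in 88.1% of all genes. The median slide range was 0.48 in the set and 0.62 over all genes, while the median group range was 0.30 in the set and 0.31 over all genes. A range over 5 means of about 4 arrays each tends to exceed a range over 4 means of about 5 without any slide effect. The comparison of ranges therefore does not measure that effect.

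**Figure D4:**
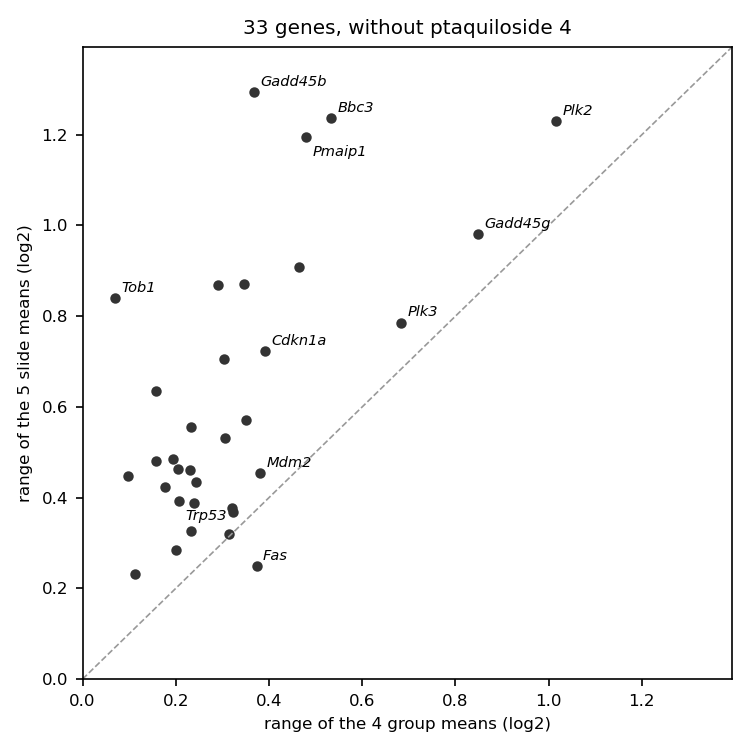
Range of the 5 slide means (y axis) against the range of the 4 group means (x axis) for the 33 genes, both in log2 units and without array ptaquiloside 4, with the line of equality dashed. Fas alone lies below the line, and Gadd45b has the largest slide range at 1.29. The y axis spans more means of fewer arrays each, which raises points above the line.

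The 4 genes that differed between slides were Gadd45b, the death genes Bbc3 and Pmaip1, and the antiproliferative Tob1. Gadd45b had slide means of 4.96, 5.50, 4.78, 4.51 and 4.21 for slides 1 to 5 (limma adjusted p = 0.00187). Its second probe showed the same order in control mice, 4.54, 4.85, 3.92, 3.66 and 3.31. Bbc3 had slide means of 5.76, 5.60, 4.81, 4.52 and 4.77 (adjusted p = 0.0067), and every array of slides 1 and 2 lay above every array of slides 3 to 5, the dim one included. Tob1 had slide means of -0.76, -0.75, -1.59, -1.36 and -1.26 (adjusted p = 0.0247), and Pmaip1 had 5.53, 5.31, 4.92, 4.33 and 5.25 (adjusted p = 0.0497). Plk3, with slide means of 3.05, 3.38, 2.79, 2.59 and 2.71, missed the threshold at an adjusted limma p of 0.0531, Chek1 at 0.0618 and Cdkn1a, with 3.27, 3.46, 2.97, 2.74 and 2.78, at 0.0726. The means of slides 1 and 2 were the 2 highest for Gadd45b, Bbc3, Tob1, Pmaip1, Plk3 and Cdkn1a. Cell markers differed along the slides too: in control mice 1 to 5 the mean log2 level of the NK list was 4.99, 4.94, 4.41, 4.25 and 4.14 and that of the platelet list 1.72, 1.75, 1.43, 1.12 and 0.88, and their part in the slide differences was not tested. Each slide held the mice of 1 number, so what else the number stands for, such as the day of isolation, cannot be told apart from the slide.

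**Figure D5:**
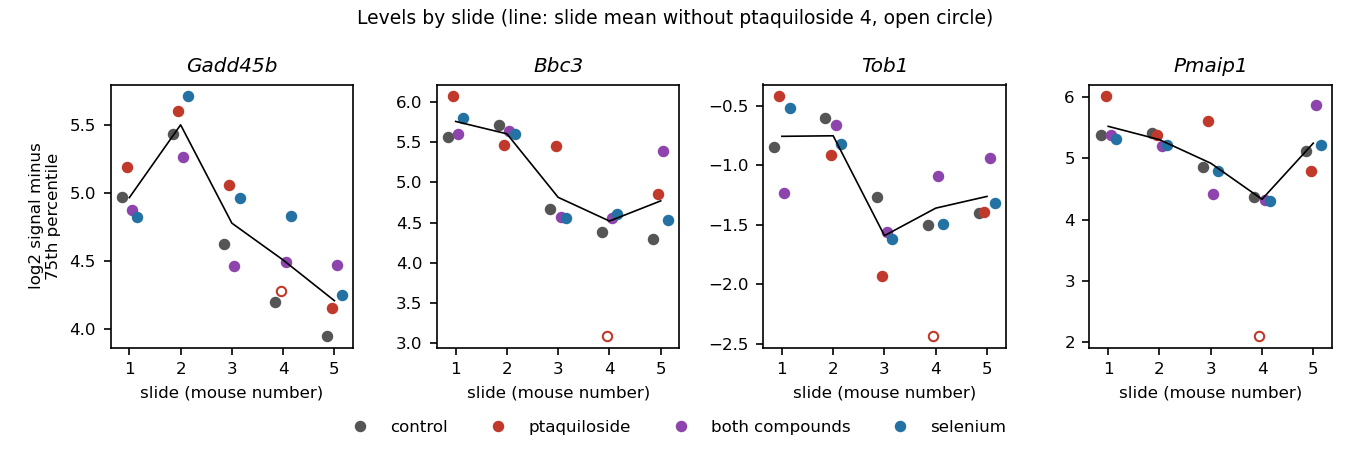
Levels of Gadd45b, Bbc3, Tob1 and Pmaip1 (log2 signal minus the array's 75th percentile, y axis) by slide (x axis), coloured by group. The line joins the slide means without ptaquiloside 4, which is drawn as an open circle, and slides 1 and 2 hold the highest slide means in all 4 genes.

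The other genes of the pathway were taken from a list of 37 further p53 targets and checkpoint components, among them Bax, Apaf1 and Ddb2 and the subunits of the Mre11 and 9-1-1 complexes. Of these 32 had a usable probe, and 0 passed the adjusted threshold in any of the 5 comparisons or the interaction. Between ptaquiloside and control 13 were higher and 19 lower on all arrays, with a median of -0.15, and 18 were higher and 14 lower without ptaquiloside 4, with a median of 0.03. The 4 with the smallest p on all arrays were Ddb2 at -0.74 ± 0.47, Pidd1 at 0.68 ± 0.45, Apaf1 at -0.61 ± 0.42 and Kat5 at -0.73 ± 0.54, with an adjusted limma p of 0.801 each. Ddb2 recognises ultraviolet lesions, Pidd1 activates caspase-2, Apaf1 forms the apoptosome and Kat5 is the acetyltransferase TIP60. Without the dim array they differed by -0.09, 0.18, -0.03 and 0.03, and 1 of 32 had an unadjusted p under 0.05, against 1.50% of all genes, Atrip, the partner of Atr, at 0.32 ± 0.13 (limma adjusted p = 1). Between selenium and control 21 were higher and 11 lower, with a median of 0.05. Those with an unadjusted p under 0.05 were 2 of 32, against 1.05% of all genes: Brca1, a repair factor, at 0.58 ± 0.25, and Ddit4, an inhibitor of TORC1 signalling, at 1.17 ± 0.52, both with a limma adjusted p of 1. Without ptaquiloside 4 there were also 2 of 32 between both compounds and ptaquiloside, against 2.77%, Atrip at -0.27 ± 0.13 and Cdc25c, a phosphatase that activates Cdk1, at 0.72 ± 0.32. In the interaction there was 1 of 32, against 2.27%, Atrip at -0.44 ± 0.17.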

How the data were processed

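RNA of splenic NK cells from 20 mice was hybridised to 20 one-colour Agilent arrays. Per the file headers, the deposited scanner files hold the processed spot intensity after background subtraction (Agilent Feature Extraction 9.5.3.1, per the submitters' processing notes), with spot marks coded as other values for well above background, saturated and outlier. The authors also deposited a table of log2 values, which was used as an alternative; its columns match log2 intensities plus a constant. Its control columns 1 to 4 hold the values of control mice 2 to 5 and its ptaquiloside column 4 those of ptaquiloside mouse 5, while column 5 of each of these groups is the mean of the other columns and was left out. Per the file header, the authors had replaced control 1 and ptaquiloside 4, the dim array here, by an average over their group mates, so the table holds neither. From the files, log2 of the processed intensity minus each array's 75th percentile was taken without a pseudocount. Control and outlier spots were left out and repeated spots averaged. Of 41174 probes, 25097 were named through an accession and 16077 kept the array's name. The brightest probe per gene well above background on at least 5 arrays was kept, 17481 genes. The 5 comparisons, an interaction and an F-test were fitted with limma 3.58.1 in R 4.3.3 over all 20 arrays, with two-sided p-values and Benjamini-Hochberg adjustment at 0.05. A difference is a log2 difference, given with its SE and, where stated, a 95% interval.

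The genes and lists were chosen with earlier results of these data known. Levels on every array are given for Trp53, Mdm2 and Cdkn1a, for the 3 genes of smallest p in each comparison, for the 4 of smallest p between ptaquiloside and control without ptaquiloside 4, and for the 2 of smallest p in the interaction. Tried alternatives were other centring, normalization, background correction, filters and probe rules, array weights, the slide as a block, the authors' table, the methods' t-test and leaving out each array. Slides equal the mouse numbers per the file headers: 24 of 30 same-number pairs correlated above 0.1 (median 0.44), and slide was treated as a batch. The fit was tested on simulated data for the ptaquiloside comparison on 17481 genes: of 1-log2 changes 17% were called on all arrays and 36% without ptaquiloside 4, and of 2-log2 changes 67% and 81%. The simulated noise was independent and had 1 spread per gene on every array, with neither a dim array nor slide effects. These shares therefore do not describe detection in the present arrays. The number of arrays limits the precision.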

Additional observations from a re-analysis of the deposited data

Results flagged for a closer look

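Within a group, 19 of 132 sets of levels held 1 array whose gap to the nearest of the others was large by Dixon's criterion; chance gives about 1 in 20, or 6.6. The same share over all genes was not computed, so no count here is read as particular to the set. Of the 19, 15 lay on array ptaquiloside 4. It was low for Atr at -0.30 (nearest array 1.39), Mdm2 at -1.62 (2.57), Mdm4 at -1.04 (0.88), Cdkn1a at 0.05 (2.93), Ccng1 at -0.86 (1.00) and Gadd45a at -0.54 (2.29). It was also low for Btg1 at 4.53 (8.27), Btg2 at 0.64 (4.36), Perp at -1.70 (0.66), Ei24 at -1.04 (1.62), Trp53inp1 at 0.53 (3.24) and Sesn1 at 0.75 (4.40). It was high for Ppm1d at 0.41 (-0.12), Tnfrsf10b at -0.96 (-2.58) and Polk at -1.81 (-2.59).

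The array of mouse 5 given both compounds was low for Trp53bp1 at -0.02 (nearest array 1.06) and high for Btg1 at 9.05 (8.23) and Phlda3 at -0.55 (-0.98). Control 4 was high for Dda1 at 2.81 (2.52).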

How the results depend on the processing

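No gene was called between groups under any alternative run, except 1 gene in the interaction without both compounds 4 (range 0 to 1). The median over the set between ptaquiloside and control (-0.17) was -0.3985 under median centring, 0.1306 with the replicate block without ptaquiloside 4, 0.1803 with array weights and 0.1475 in the authors' table, and ran from -0.3221 to 0.1776 when each array was left out. The median between both compounds and ptaquiloside (0.17) was 0.3523, -0.151, -0.1218 and -0.3083 under these and -0.0122 under normexp, with a leave-one-out range of -0.1811 to 0.2988. The median of the interaction (0.07) was 0.2423 under quantile normalization, -0.1834 with that block, -0.2017 with weights and -0.2268 in the deposited values, with a range of -0.2226 to 0.2315. Direction reversed for Mdm2 (block without ptaquiloside 4 0.1757, weights 0.0503, deposited values 0.0502, leave-one-out -0.9569 to 0.1663), Cdkn1a (0.2348, 0.615, 0.3076, -0.5266 to 0.3109) and Ccng1 (0.2766, 0.3111, 0.3525, normexp 0.1717, -0.2402 to 0.3141). The block on all arrays left Mdm2, Cdkn1a and Ccng1 at -0.691, -0.3026 and -0.0852. Array weights gave ptaquiloside 4 a weight of 0.028 and both compounds 5 the next lowest, 0.25. When each array was left out, Mdm2 and Cdkn1a reversed only without ptaquiloside 4. Direction also reversed for Mdm4 with probes above background on all 20 arrays (0.599), Ppm1d averaged over probes (-0.0445) and Atm between both compounds and ptaquiloside under normexp (-0.0281). The deposited values hold no column of ptaquiloside 4 or control 1. Otherwise the cause was not tested. Genes differing between slides (3844, 4 of the set) numbered 970 and 2 on all arrays, 6696 and 20 under median centring, and 276 and 2 under normexp, all chosen after seeing the data. Median centring moved the median of all genes by -0.24 between ptaquiloside and control, leaving the set 7 higher and 26 lower, and by 0.12 without ptaquiloside 4, leaving it 30 higher and 3 lower. The replicate block on all arrays gave a median of -0.1662 and changed no call. Between ptaquiloside and control on all arrays, the median over the set was -0.0203 under normexp and -0.2933 under quantile normalization. The methods' t-test gave 170 genes at an unadjusted p under 0.05, 0 after Benjamini-Hochberg and 0 of the set.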
